A study of Mus musculus with 36 samples.

Results

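The mitochondrial ribosomal protein genes were taken as every gene on the array whose platform symbol starts with Mrpl or Mrps followed by a digit. They numbered 64 of the 9930 genes with a single symbol and lay on 79 probes, and 40 carried the Mrpl prefix of the large subunit and 24 the Mrps prefix of the small subunit. Probes of a gene were averaged. The cells were NIH3T3, an established line of mouse fibroblasts, transfected with Erbb2, a growth-promoting receptor kinase at the cell surface, in a tet-off system in which tetracycline switches the transgene off. Total RNA was profiled on dual-colour cDNA arrays, 4 per group, from cells after tetracycline for 1, 2, 4, 12 or 24 h or for 3, 5 or 7 days, and from untreated cells. All groups share the transgene, and per the labels channel 2 of every array held untreated Erbb2 cells. The labels name neither the promoter nor the clone, and they do not say whether replicates were separate cultures, so p-values measure only the spread between these arrays. Their protocols speak of organs and of a reference from control animals, and the series' design text speaks of different untreated lines, so what the ratios were taken against is not fully settled. No probe on the array carried the symbol Erbb2, and the switch-off itself could not be checked.

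The mitochondrial ribosome translates the messages of the mitochondrial genome, which encode core subunits of the respiratory chain and of ATP synthase. Its RNAs come from the mitochondrial genome, while all of its proteins are encoded in the nucleus, made in the cytosol and imported. Some of these proteins have homologues in the bacterial ribosome, and others are found only in mitochondria. A list drawn up for this work put 13 of the genes among small subunit proteins of the bacterial type and 8 among those specific to mitochondria. It put 23 among large subunit proteins of the bacterial type and 19 among those specific to mitochondria. Its placing of Mrps24 (specific to mitochondria) and of Mrps18b (bacterial type) is open to question. Mrps18a and Mrps30, which carry small subunit names, are proteins of the large subunit and were listed there. Mrps36, now known as a subunit of the oxoglutarate dehydrogenase complex, was in no list.

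Promoters are shown for the called genes (defined below) that RefSeq's table held, since the tests by gene turn on these members. Each sequence runs 5′ to 3′ on the gene's strand over 300 bases around the start of the RefSeq transcript, most of them before it, on build GRCm38.p6, and capitals mark CCGGAAG, the core recognised by ETS factors such as GABP. The promoter of Mrps5 lay at chr2:127587176-127587475, that of Mrps6 at chr16:92058086-92058385 and that of Mrpl51 at chr6:125191950-125192249, all on the plus strand.
Mrps5: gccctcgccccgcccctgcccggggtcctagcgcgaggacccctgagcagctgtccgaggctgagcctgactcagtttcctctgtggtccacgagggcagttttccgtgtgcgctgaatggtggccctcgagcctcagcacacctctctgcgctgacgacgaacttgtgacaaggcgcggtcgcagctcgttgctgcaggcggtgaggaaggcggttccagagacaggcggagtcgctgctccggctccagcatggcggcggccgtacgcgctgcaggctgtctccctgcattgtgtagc
Mrps6: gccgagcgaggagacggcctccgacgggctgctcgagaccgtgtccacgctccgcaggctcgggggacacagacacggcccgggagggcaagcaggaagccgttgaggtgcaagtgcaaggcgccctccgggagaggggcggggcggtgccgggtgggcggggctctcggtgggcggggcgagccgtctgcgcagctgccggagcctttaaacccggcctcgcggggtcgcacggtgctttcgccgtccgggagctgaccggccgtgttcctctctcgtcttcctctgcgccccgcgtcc
Mrpl51: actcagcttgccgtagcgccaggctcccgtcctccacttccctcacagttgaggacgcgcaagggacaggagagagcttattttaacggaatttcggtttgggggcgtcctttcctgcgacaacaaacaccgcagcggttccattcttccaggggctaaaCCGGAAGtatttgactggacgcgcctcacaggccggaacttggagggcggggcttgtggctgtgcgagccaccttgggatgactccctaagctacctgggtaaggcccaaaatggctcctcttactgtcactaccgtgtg

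Of the 64 genes, 57 had an entry in that table, with 63 promoters among them. CCGGAAG, searched on both strands, was in 23 of the 63 (36.5%), against 8.86% of all 32851 mouse promoters of the same length. The site of NRF1, a regulator of nuclear genes for mitochondria, with 1 base of its core left free, was in 17.5%, against 4.6% of all. The same core with no free base, which the looser form includes, was in 1.59% and 0.971%. The extended site of YY1 was in 7.94% against 0.852% of all, CACGTG was in 11.1% against 7.15%, and TATAAA was in 7.94% against 13.6%. The members' promoters were richer in G and C, with a median of 58.3% against 52.7%, and the part of this in the motif shares was not tested. Among the promoters printed, that of Mrpl51 held CCGGAAG, with its first base at position -90 from the transcript start, and the other two held none of these motifs. A match is a description of the letters and not a site of binding.

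After tetracycline the mitochondrial ribosomal protein genes as a group stayed close to the untreated arrays through 24 h, and most lay somewhat lower at 3 and 5 days. Values are log2 ratios with each array's median set to 0, turned so that values above 0 mean more RNA in channel 1 than in channel 2 if Cy5 is the numerator, which no source states, and differences are a time minus the untreated arrays. In limma's fit across all genes, with Benjamini-Hochberg adjusted p under 0.05 as a call, no member was called at any single time. At 1 h, 0 of 61 were called, where 0.239% of all genes tested were, and at 2 h 0 of 61, where 0.549% were. At 4 h it was 0 of 60 (all genes 0.268%), at 12 h 0 of 60 (0.0218%) and at 24 h 0 of 61 (0.0219%). At 3 days it was 0 of 60 (0.5%), at 5 days 0 of 59 (1.6%) and at 7 days 0 of 57 (1.12%). With shares this low among all genes, a count of 0 does not set the members apart. At an unadjusted p under 0.05, limma gave 1, 3, 1, 3, 2, 4, 9 and 7 members at the 8 times in order. As shares of the members tested these are 1.64%, 4.92%, 1.67%, 5.0%, 3.28%, 6.67%, 15.3% and 12.3%, and the shares of all genes tested were 5.16%, 6.07%, 4.26%, 4.37%, 4.5%, 12.3%, 10.9% and 10.8%. The share of all genes was thus higher at 3 to 7 days too. The arrays of 1 to 24 h, pooled, gave 0 of 60 (all genes 0.314%), and those of 3 to 7 days 0 of 56 (all genes 1.32%). At an unadjusted p under 0.05 limma gave 3 members for 1 to 24 h (5.0%, all genes 6.25%) and 4 for 3 to 7 days (7.14%, all genes 9.7%).

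The size of the differences is shown in the plot of members by time. The median difference of the members was -0.01 at 1 h, 0.08 at 2 h, 0.01 at 4 h, -0.03 at 12 h and -0.03 at 24 h. It was -0.12 at 3 days, -0.19 at 5 days and -0.04 at 7 days, while the median over all genes lay between 0 and 0.04 at every time. At 5 days 39 of 59 members had a difference below 0 and at 3 days 39 of 60, with no test on these counts. The median within single arrays tells the same for 5 days: it was -0.13, -0.06, -0.18 and -0.12 on the 4 arrays and 0.08, 0.06 and 0.02 on the 3 distinct untreated ones, without overlap. Had the Cy3 arrays not been turned, the 5-day median would have been -0.01. At 3 days the array medians were -0.01, -0.03, -0.07 and 0.04 and overlapped those of the untreated arrays. At 7 days they ran from -0.2 to 0.06 and overlapped too. The 8 times share the same untreated arrays, so their values are not independent of each other.

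**Figure D1:**
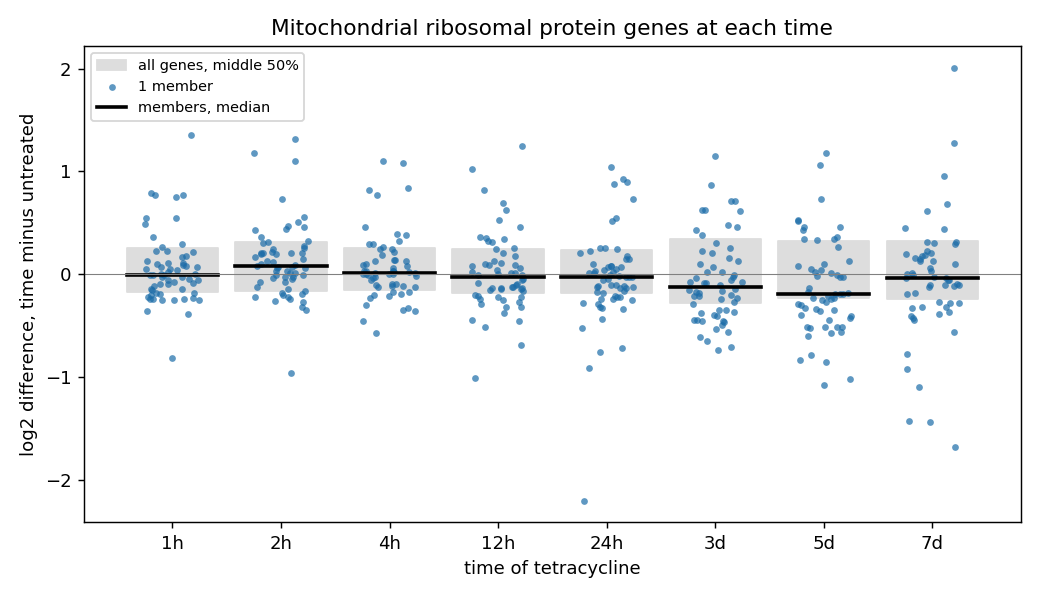
Log2 difference of each mitochondrial ribosomal protein gene from the untreated arrays (vertical axis) at each time of tetracycline (horizontal axis, not to scale). Each point is 1 gene, the black bar is the members' median and the grey band spans the middle 50% of all genes. The bar lies between -0.03 and 0.08 from 1 to 24 h and at -0.12, -0.19 and -0.04 at 3, 5 and 7 days.

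The arrays stood apart in their spread, which bears on every late value. The interquartile range of all log2 values on an array was 0.357 to 0.504 at 1 to 24 h, 0.697 to 1.419 at 3 to 7 days and 0.492 to 0.7 in the untreated. The median SD of a member between the arrays of a group was 0.21 at 1 to 24 h, 0.46 at 3 to 7 days and 0.21 in the untreated arrays. The first 2 untreated columns were the same but for an offset of 0.771 (SD 0.00051 over 19840 values) and were counted as 1 array, so 35 arrays entered the fit. Between 17508 and 20010 probes per array had a value, and precision is limited by how many arrays there are. The 95% confidence interval of a member's difference lay within 1 log2 unit on either side of 0 for 40 of 61 members at 1 h and 33 of 59 at 5 days. The fit took 1 spread per gene over all groups, and the members' median SE was 0.28 at both times. The intervals and p-values thus do not follow the wider spread of the late arrays. Of the 64 members, 56 could be tested in all 12 comparisons, 6 in some, and Mrpl11 and Mrps24 in none, for want of 3 values in each group.

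The clearest changes were between the late and the early times. In the contrast of 3 to 7 days with 1 to 24 h, 3 of 57 members were called (5.26%), all lower: Mrps5, Mrpl51 and Mrpl13. Among all genes 7.45% were called, 4.22% lower and 3.23% higher, so the members' share is near the background. At an unadjusted p under 0.05 there were 10 lower and 1 higher, 19.3% of the members against 18% of all genes. The median difference was -0.11 over the members, of which 37 lay below 0, and 0 over all genes, of which 49.6% lay above 0. The F-test over all 8 times and the untreated arrays called 1 of 56 members, Mrps6 (all genes 5.17%), with 5 at an unadjusted p under 0.05 (8.93%, all genes 14.4%).

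**Figure D2:**
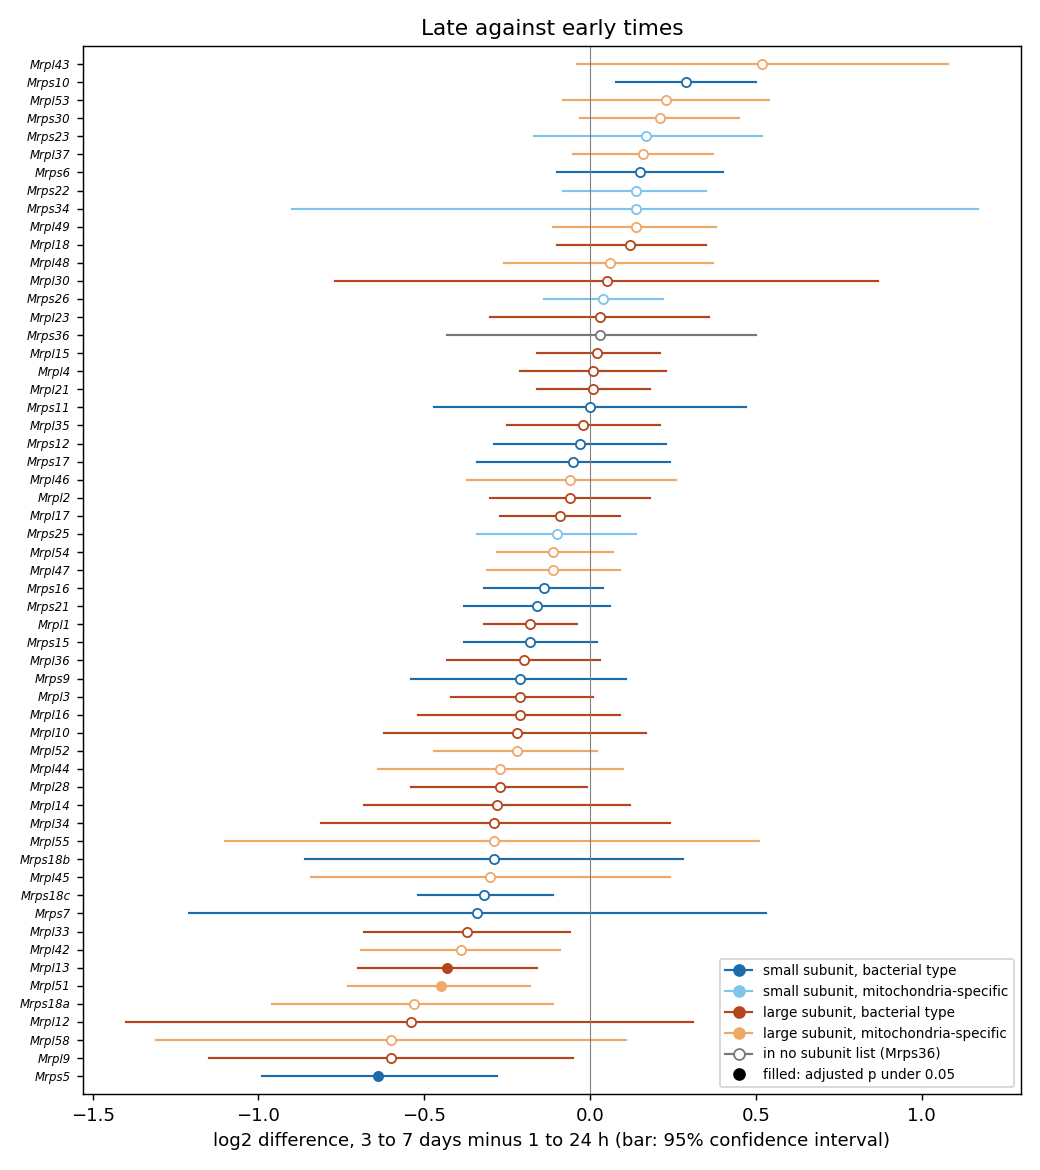
Log2 difference between the arrays of 3 to 7 days and those of 1 to 24 h (horizontal axis) for the 57 members tested, sorted by size. Points are limma's estimates, bars their 95% confidence intervals, and colours the subunit lists. The filled points are the called genes Mrps5 at -0.64, Mrpl51 at -0.45 and Mrpl13 at -0.43.

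Among small subunit proteins of the bacterial type, Mrps5, the homologue of a bacterial protein that lines the messenger's entry into the small subunit, was lower late. Its log2 ratios at 7 days were -0.90, -1.01, -0.71 and -1.41, against 0.32, -0.32 and -0.28 in the untreated arrays. At 5 days they were -0.62, -1.42, -1.29 and 0.74, and at 3 days -0.44, 0.70, -0.90 and 0.05. All arrays of 7 days lay below every untreated array, while at 3 and 5 days 1 or more arrays lay above them all. Over the 20 arrays of 1 to 24 h the ratio ran from -0.32 to 0.59 with a median of -0.05, and 9 of the 12 late arrays lay below that whole range. The difference late minus early was -0.64 (SE 0.17, limma adjusted p = 0.0203). The arrays with channel 1 in Cy5 gave a mean difference of -0.68 and those in Cy3 -0.59. The call held when each of the 32 treated arrays was left out in turn, with differences from -0.80 to -0.54 and adjusted p from 0.000154 to 0.0475. It ended under quantile normalization (adjusted p = 0.0535) and array weights (0.0621), without the arrays of 5 and 7 days (a difference of -0.18) and with the Cy3 arrays not turned (-0.05).

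Mrps6, whose bacterial homologue sits on the platform of the small subunit, was called by the F-test (F = 4.51, adjusted p = 0.033), and its values were highest at 7 days. There its log2 ratios were 1.56, 0.83, 0.25 and 1.29, all above the untreated values of 0.02, -0.02 and 0.07. At 5 days they were -0.48, -0.38, -0.32 and 0.30, and at 3 days -0.37, -0.54, 0.17 and 0.50. The groups from 1 to 24 h had means between -0.13 and 0.23. The 7-day difference was 0.96 (SE 0.25), which did not pass by itself (adjusted p = 0.0597; 95% confidence interval 0.44 to 1.48). In limma's test it passed in 1 of 7 omissions of an array, without replicate 3 of 7 days (adjusted p = 0.00593). It also passed in 4 of 14 other settings. Among these were a dye effect for each group (0.0273), both untreated replicates 1 and 2 kept (0.0217) and the test against 0 (0.000313). The mean at 7 days was 1.19 on the Cy5 arrays and 0.77 on the Cy3 arrays. Each of the gene's 2 probes was higher at 7 days, by 1.18 (SE 0.30, adjusted p = 0.0465 when every probe was tested by itself) and by 0.73 (SE 0.38, adjusted p = 0.496). The F-test's call ended without replicate 4 of 24 h, replicates 1, 2 or 3 of 5 days or replicates 1, 2 or 4 of 7 days, when the adjusted p reached 0.173. It also ended under quantile normalization (adjusted p = 0.0789) and with values not centred (0.614). Without the arrays of 5 and 7 days it ended too (0.972), as it did with those rows not moved back (0.52) and with the Cy3 arrays not turned (0.815). Of the probes by themselves, only that at 0.73 had enough values in every group. The F-test did not call that probe (adjusted p = 0.613), and the probe at 1.18 could not be given an F-test. Slc5a3, a transporter of inositol, overlaps Mrps6 in the RefSeq annotation, and the probes' place within the gene was not examined.

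**Figure D3:**
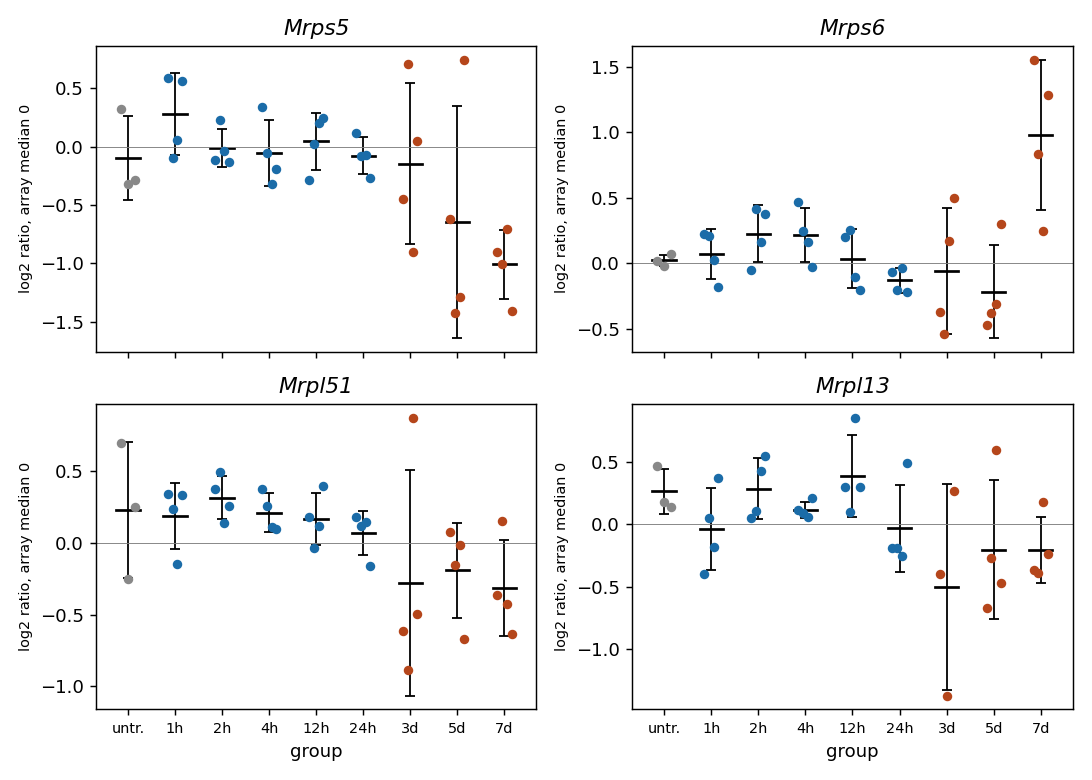
Log2 ratio on each array (vertical axis, array median at 0) of the 4 called members in each group (horizontal axis). Points are single arrays, grey for untreated, blue for 1 to 24 h and rust red for 3 to 7 days; the long bar is the group mean and the whisker 1 SD. Mrps6 has all 4 arrays of 7 days above the untreated ones, Mrps5 has all 4 below, and the late arrays of Mrpl51 and Mrpl13 are widely spread.

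At 7 days 1 member of 57 lay above every untreated array on all of its arrays (Mrps6; 3.91% of all genes did), and 3 lay below (Mrps5, Mrpl10 and Mrpl55; 3.33% of all genes). Mrps18c, one of the mammalian relatives of bacterial S18, had a late minus early difference of -0.32 (SE 0.10), just outside the threshold (adjusted p = 0.0517). Its log2 ratios at 5 days were -0.05, 0.07, -0.49 and -0.52, and at 2 h 0.35, 0.34, 0.36 and 0.69. The untreated values were 0.04, 0.13 and 0.29, below all arrays of 2 h and overlapping with those of 5 days. Mrps10, of the head of the small subunit, had the opposite sign, with 0.29 (SE 0.10, adjusted p = 0.0873). Its 3-day arrays were 0.16, 0.11, 1.38 and 1.17, so the high values were those of the Cy3 arrays. Of the 13 small subunit genes of the bacterial type, all could be tested late against early; 1 was called, 10 lay below 0 and their median was -0.16.

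The small subunit proteins specific to mitochondria had too few tested genes for a summary of weight. Late against early 5 of the 8 could be tested, none was called, 1 lay below 0, and the median was 0.14. Mrps35 had the lowest estimate of any member at 24 h, -2.20 (SE 0.75, adjusted p = 0.766). Its log2 ratios there were -0.65, 0.76, -2.29 and -3.13, and in the untreated arrays 0.84, 1.92 and -0.91, so the groups overlap. Mrps34 had an estimate of -0.81 at 1 h with an SE of 1.06. Neither passed the test.

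Among large subunit proteins of the bacterial type, Mrpl13 was lower late, with a difference of -0.43 (SE 0.13, adjusted p = 0.044). Its log2 ratios were -0.40, -1.38 and 0.27 on the 3 arrays of 3 days that had a value, -0.67, -0.27, 0.59 and -0.47 at 5 days and -0.36, -0.39, 0.18 and -0.24 at 7 days. The untreated arrays were at 0.47, 0.18 and 0.14. Replicate 3 of 3, 5 and 7 days was the highest of its group each time, and it is a Cy3 array. The mean late minus early was -0.58 on Cy5 arrays and -0.22 on Cy3 arrays. Replicate 4 of 3 days had no value, so no further array of 3 days could be left out. The call remained without replicates 1 or 3 of 1 h, 3 of 4 h, 4 of 12 h, 3 of 24 h, 2 or 3 of 5 days, 3 of 7 days, or the empty array. It ended without any of the other 20, with adjusted p up to 0.0957. Over all 29 of these omissions the differences ran from -0.50 to -0.37. Under 8 other settings it ended too, with adjusted p from 0.0513 (replicate block) to 0.357 (Cy3 arrays not turned).

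Mrpl10, a protein at the base of the stalk that recruits translation factors, was among the 3 lowest members in 8 comparisons with the untreated arrays, and with the main settings it was called in none. Its log2 ratios at 7 days were -1.0, -0.53, -0.21 and -0.64, against 1.42, 0.63 and 0.44 in the untreated arrays. The 7-day difference was -1.43 (SE 0.41, adjusted p = 0.0876), and at 12 h it was -1.01 (SE 0.41, adjusted p = 0.911). The untreated mean of 0.83 enters all of these differences: the group means at 12 and 24 h were -0.18 and -0.08, close to the array median. Late against early its difference was -0.22. In other settings limma did call Mrpl10 lower than untreated. At 7 days this was so with a dye effect for each group (-1.57, adjusted p = 0.0325) and with untreated replicates 1 and 2 both kept (-1.57, adjusted p = 0.0216). For 3 to 7 days it was so without the 3-day arrays (-1.21, adjusted p = 0.0444). The gene's values average its probes. The only probe with enough values for a limma test by itself gave -0.75 at 7 days (SE 0.3, adjusted p = 0.296). At 12 h that probe gave -0.43 (SE 0.3). Mrpl12, which binds Mrpl10 in the stalk, had -1.44 at 7 days with an SE of 0.88.

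Mrpl16, near the centre where peptide bonds form, showed how the untreated arrays bear on the comparisons. Its untreated log2 ratios were 0.67 on the Cy5 array and -1.32 and -1.07 on the Cy3 arrays, while its 32 treated arrays ran from -0.62 to 0.40. Per the labels, the untreated arrays set untreated cells against untreated cells. Before the Cy3 arrays were turned, the untreated values of Mrpl16 all had the same sign. With all arrays its differences from untreated did not pass, for example 0.68 for 1 to 24 h (SE 0.26, adjusted p = 0.554). Without untreated replicate 1, which leaves 2 Cy3 arrays, it was called at each of the 8 times, and the 1 to 24 h difference was 1.36 (adjusted p = 0.000583). In that setting 2 of 60 members were called for 1 to 24 h, Mrpl16 and Mrpl58, and 3.21% of all genes. Mrpl58, a peptidyl-tRNA hydrolase built into the large subunit, had untreated ratios of 1.01, -1.41 and -3.03 in the same order. Before the turn these also shared a sign. The part of the dye in the untreated values of both genes was not tested, and without replicate 1 the calls rest on the turned arrays.

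Mrpl18, which in bacteria binds the small ribosomal RNA of the large subunit, lay above 0 on 31 of the 32 treated arrays, with a median of 0.40, and on all untreated arrays, at 0.12, 0.34 and 0.20. Tested against 0 rather than against the untreated arrays, its mean was 0.41 at 1 to 24 h (SE 0.07, adjusted p = 0.000104) and 0.53 at 3 to 7 days (SE 0.09, adjusted p = 8.28e-05). At 3 days Mrpl18 split by dye, at 0.06 and -0.07 on the Cy5 arrays and 1.22 and 1.38 on the Cy3 arrays. At 5 and at 7 days its values in the 2 dyes overlapped. Against the untreated arrays the differences were 0.22 (SE 0.19, adjusted p = 1.0) and 0.35 (SE 0.19, adjusted p = 0.598). Its gene overlaps that of the chaperonin subunit Tcp1 in the RefSeq annotation. Over all members, tests against 0 called 2 of 61 at 1 to 24 h (Mrpl18 and Mrps18c, both above; 4.25% of all genes). At 3 to 7 days they called 7 of 57 (9.79% of all genes), with Mrpl18, Mrps10 and Mrpl49 above and Mrps5, Mrpl42, Mrpl36 and Mrpl1 below. At 7 days alone they called 3 of 59 (5.55% of all genes), Mrps6 and Mrpl43 above and Mrps5 below. Late against early, 21 of the 23 large subunit genes of the bacterial type could be tested. Of these 1 was called, 15 lay below 0 and the median was -0.20.

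Mrpl34, another of this list, was among the 3 highest members in 8 comparisons without a call. Its estimate at 12 h was 1.25 (SE 0.54, adjusted p = 1.0), and its untreated log2 ratios were 0.30, -0.22 and -2.29, so 1 array sets most of the difference. The gene's 2 probes were also far apart at 12 h, at 2.38 (SE 1.18) and 0.14 (SE 0.22), and neither was called. When every probe was tested by itself, 1 of its 2 probes had a late minus early difference of -0.58 (SE 0.11, adjusted p = 0.0003), and the other had too few values. Mrpl30 had the highest estimate at 7 days, 2.01 (SE 0.86, adjusted p = 0.367), from log2 ratios of -0.44, 4.94 and -0.58, and replicate 1 had no value. A single array is high there. Mrpl23, at the exit of the peptide tunnel, had the highest estimate at 3 days, 1.15 (SE 0.34, adjusted p = 0.124). Its log2 ratios there were -0.197 and -0.175 on the Cy5 arrays and 1.98 and 1.28 on the Cy3 arrays, so only the Cy3 arrays were high. The untreated values were -0.27, 0.27 and -1.10.

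Among large subunit proteins specific to mitochondria, Mrpl51 was lower late, by a difference of -0.45 (SE 0.13, adjusted p = 0.0356). Its log2 ratios were -0.61, -0.88, 0.87 and -0.49 at 3 days, 0.08, -0.16, -0.02 and -0.67 at 5 days and -0.36, 0.15, -0.42 and -0.63 at 7 days. The untreated arrays were at 0.69, -0.25 and 0.25 and overlapped with each late group. Over 1 to 24 h the ratio ran from -0.16 to 0.49, and 7 of 12 late arrays lay below that range and 1 above it. The mean late minus early was -0.55 on Cy5 and -0.36 on Cy3 arrays. Left out in turn, 11 arrays ended the call: replicate 4 of 1 h, 1 of 4 h, 4 of 12 h, 3 of 24 h, 1, 2 or 4 of 3 days, 4 of 5 days and 1, 3 or 4 of 7 days. Adjusted p then reached 0.0763. Over all 32 omissions the differences ran from -0.59, without replicate 3 of 3 days, where the call held, to -0.38. The call also ended with values not centred (adjusted p = 0.14), without the arrays of 5 and 7 days (0.186) and with the Cy3 arrays not turned (0.734).

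Other large subunit proteins of this list gave estimates with wide errors. Mrpl55 had the lowest estimate at 7 days, -1.68 (SE 0.85, adjusted p = 0.49), with log2 ratios of -3.30, -0.98 and -1.01 on the 3 arrays with a value. Mrpl45, which anchors the ribosome to the inner membrane, had the lowest at 5 days, -1.08 (SE 0.53, adjusted p = 0.466). Its 5-day ratios of -1.09, -0.06, 0.25 and -2.37 spanned the untreated values of 0.22, -0.16 and 0.42. Mrpl43 had the highest late minus early difference, 0.52 (SE 0.27, adjusted p = 0.323). Mrpl46 had -0.69 at 12 h (SE 0.32, adjusted p = 1.0). Late against early 17 of the 19 genes could be tested, 1 was called, 11 lay below 0 and the median was -0.11.

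The remaining genes at either end of a comparison did not pass, with adjusted p from 0.222 to 1.0. At 1 h Mrps17 had -0.39 (SE 0.30) and Mrps18a 0.79 (SE 0.44). At 4 h Mrpl2 had -0.36 (SE 0.24), and at 24 h Mrps7 had 0.90 (SE 0.89). At 5 days Mrpl14 had -0.85 (SE 0.40) and Mrps36 1.06 (SE 0.47). Late against early Mrpl9 had -0.60 (SE 0.27), Mrpl58 -0.60 (SE 0.34) and Mrpl53 0.23 (SE 0.15). In the F-test Mrpl49 (F = 2.47), Mrpl15 (F = 2.13) and Mrpl1 (F = 2.04) were among the 10 smallest p-values, with adjusted p of 0.294, 0.412 and 0.451. For the genes of this paragraph, the errors are of the size of the differences or leave them short of the threshold over all genes.

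Probes of the same gene did not always run together. Of the 14 members with more than 1 probe, 8 could be compared late against early, and 5 of these had probes of opposite sign, with a median gap of 0.24 between the highest and the lowest probe. At 3 days it was 7 of 11 with a median gap of 0.57, and at 1 h 7 of 13 with a gap of 0.16. The gaps at 3 days are larger than the members' median shift. Mrps5, Mrpl13 and Mrpl51 each had a single probe.

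Genes that work with the mitochondrial ribosome were set beside it by lists drawn up for this work. Of mitochondrial translation factors, 0 of 10 were called late against early, and 1 was called at 7 days, Mtres1, a factor that rescues stalled mitochondrial ribosomes, higher by 2.79 (SE 0.66, adjusted p = 0.0278). Of mitochondrial tRNA synthetases 0 of 8, of ribosome assembly factors 0 of 12 and of genes for mitochondrial transcription and RNA processing 0 of 12 were called late against early, and none of these was called at any single time. Their late minus early medians were 0.05 (translation factors), 0.06 (synthetases), 0.05 (assembly) and -0.04 (transcription). In this contrast these lists lay near the all-gene median of 0, and the ribosomal proteins at -0.11. The gap was not tested, and it did not hold for every list at single times. At 3 days the medians against untreated were -0.17 (translation factors), 0.04 (synthetases), -0.08 (assembly) and 0.09 (transcription), and -0.12 for the ribosomal proteins.

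The nuclear genes for the respiratory chain and ATP synthase, complexes of which most also hold subunits made by the mitochondrial ribosome, had more calls. Late against early 21 of 60 were called, 20 lower and 1 higher (Ndufb7, by 0.91), where 7.45% of all genes were called, 4.22% lower and 3.23% higher, and the list's median was -0.26. The lowest was Atp5g3, of the membrane ring of ATP synthase, at -1.37 (SE 0.15, adjusted p = 7.08e-08), followed by Cox7b at -0.84 (SE 0.12), Atp5b at -0.81 (SE 0.11), Atp5pb at -0.77 (SE 0.09) and Cox5b at -0.74 (SE 0.08). At 5 days the median of this list was -0.43, against -0.19 for the ribosomal proteins, and 3 of 63 were called, all lower (all genes 1.6%): Ndufa6, Ndufc2 and Uqcrh. Ndufa6 was called lower at 1 h too, at -0.78 (SE 0.16, adjusted p = 0.0193), beside -0.88 at 5 days. Late minus early it had -0.27 (SE 0.08). The difference between the lists was not tested, and this list was counted with the main settings alone.

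**Figure D4:**
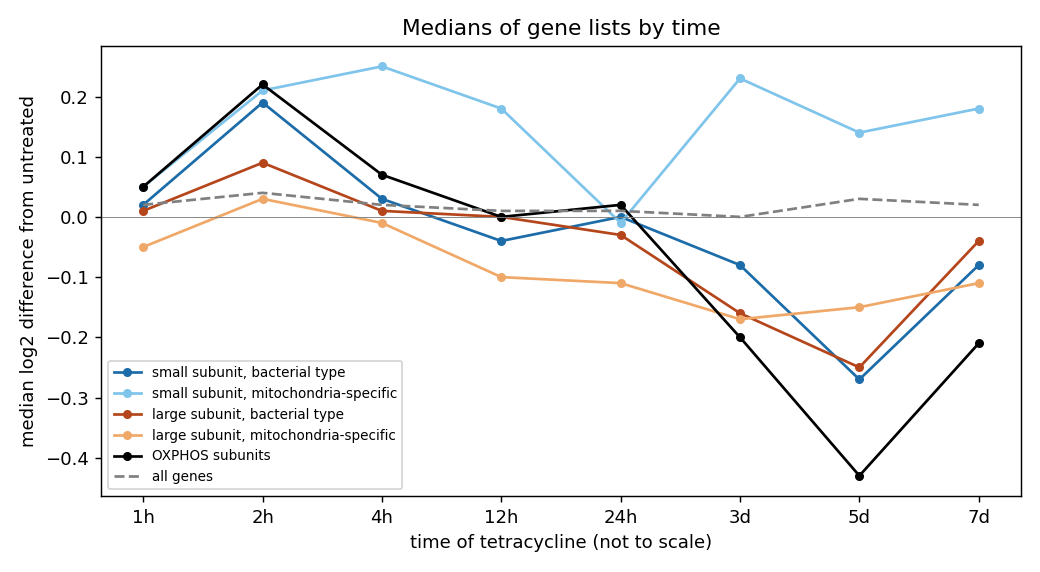
Median log2 difference from the untreated arrays (vertical axis) of the 4 lists of mitochondrial ribosomal proteins, of nuclear oxidative phosphorylation (OXPHOS) subunits and of all genes, at each time (horizontal axis, not to scale). At 5 days the OXPHOS list lies at -0.43 and 3 ribosomal lists at -0.27, -0.25 and -0.15, while the small subunit proteins specific to mitochondria, with 6 genes, lie at 0.14.

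Markers of the cell type moved with the same contrasts. Of 10 fibroblast genes 5 were called at 1 h, all lower, among them Dcn and Col1a1 (all genes 0.239%), and 8 late against early, 6 higher and 2 lower, with a median of 0.70 (all genes 7.45% called). Of 6 epithelial genes none was called in any comparison. Of 3 macrophage genes 1 was called, Lyz2, higher late against early by 0.48 (SE 0.14, adjusted p = 0.0324). Ratios hold no level of RNA, so which of these markers were absent could not be read. The part of a change in the cells or of the wider spread of the late arrays in the members' differences was not tested, and fewer cells of a type and less RNA per cell cannot be told apart in such samples.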

How the data were processed

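Each deposited column holds log2 ratios between the channels of 1 array; per the labels, replicates 1 and 2 carried channel 1 in Cy5 and replicates 3 and 4 in Cy3. The numerator, image software, background correction and normalization are not given in the sources used here. Of 20355 probes, 14030 had 1 gene symbol in the platform annotation, 5 several and 6320 none. The 2807 values above 12 were set to missing, arrays were centred on their medians, and Cy3 arrays were multiplied by -1. That turn has support in genes such as Egr1, whose ratios as deposited at 24 h were -4.23 and -3.12 in Cy5 and 3.62 and 3.77 in Cy3 arrays; whether Cy5 is the numerator no source says, and it is assumed. In the 5- and 7-day arrays values had slid against the probe rows from rows 6052, 7314, 7855 and 18330 on, and 5-day replicate 1 by 1 row more; the shift was found by correlating stretches of rows with the other arrays at each offset, and they were moved back, with 703 rows left out. limma 3.58.1 in R 4.3.3 fitted group means with a common dye effect over 35 arrays, with at least 3 values in each group compared, and was tested on simulated data. Same-numbered arrays did not deviate together (mean r = 0.015, against -0.005 for other pairs), so the numbers were not used as pairs. Genes named are all called members, the 3 highest and 3 lowest per comparison and the 10 smallest F-test p-values; Mrpl18, Mrpl36, Mrpl42, Mrps15 and Mrps22 were singled out after their values were seen. The members and the gene lists were chosen with earlier results of these data known. Alternatives tried are given in the closing section.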

Additional observations from a re-analysis of the deposited data

Results flagged for a closer look

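Mrps5, Mrpl51 and Mrpl13 had lower values at 3 to 7 days than at 1 to 24 h by limma's test of that difference, with -0.64, -0.45 and -0.43 on the log2 scale. All 3 rest on single probes, and the late arrays had the wider spread. Mrpl30 on replicate 3 of 4 h stood apart from its group, at 1.46 where the other 3 arrays lay between -0.23 and -0.07. This was 1 of 40 groups of 4 arrays examined, and in groups not picked by their values chance sets a sample apart in about 1 of 20. The groups examined belonged to members among the 3 highest or 3 lowest at that time, so this rate need not hold for them.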

How the results depend on the processing

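Members called are given per comparison with the untreated arrays unless said otherwise; the main count was 0 at each time. With the Cy3 arrays not turned, 1 was called at 1 h, 1 at 2 h, 2 at 12 h, 1 at 24 h, 13 at 3 days, 2 at 5 days, 4 at 7 days, 3 for 1 to 24 h and 5 for 3 to 7 days, and 5 by the F-test (main 1). Calls over all genes were also more numerous there: 452 higher and 683 lower at 3 days, against 44 in all with the arrays turned, and 115 higher and 211 lower at 7 days, against 97. In that setting 45 of 68 named differences had the opposite sign, and Mrpl16 at 1 h (-1.0) and Mrpl23 at 3 days (-1.09) were called lower, against positive differences with the arrays turned. Late against early 3 were called there as in the main setting, but these were Mrpl46, Mrps15 and Mrps22, and the members' median was 0.05. With array weights there were 2 calls at 1 h, 3 at 2 h, 1 each at 4, 12 and 24 h and at 5 days, 2 for 1 to 24 h, 1 for 3 to 7 days, 1 late against early (main 3) and 2 by the F-test. These counts were not set against the share of all genes called with array weights. Leaving out single arrays aside, the most calls over all genes in any setting were 452 at 1 h, 802 at 2 h and 370 at 4 h. At 12 h the most were 292 and at 24 h 346. Against 0 the members called, with all genes called in brackets, were 1 at 2 h (251 of 9685), 2 at 3 days (487 of 9098) and 3 at 5 days (448 of 9112). They were 3 at 7 days (496 of 8941), 2 for 1 to 24 h (388 of 9119), 7 for 3 to 7 days (812 of 8295) and 4 by the F-test (639 of 8034). A dye effect for each group gave 2 at 7 days (Mrpl10 and Mrps6) and 5 late against early. Both untreated replicates 1 and 2 kept gave 2 at 7 days, again Mrpl10 and Mrps6. Every probe by itself gave 1 at 7 days and 5 late against early. The counts with a dye effect for each group, with both untreated replicates kept and with single probes were likewise not set against all genes. Values not centred gave 1 late against early and 0 by the F-test, and moved the all-gene median of the 5-day differences to -0.19, with the members at -0.41. Quantile normalization and 5d and 7d rows not moved back each gave 0 by the F-test. Leaving out late times was chosen after seeing the data: without the 5d and 7d arrays there was 1 call late against early and 0 by the F-test, without the 3d arrays 1 for 3 to 7 days, and without all arrays of 3 to 7 days 0 by the F-test. Leaving out 1 array at a time gave 0 to 1 calls at 1, 2, 4, 12 and 24 h and at 5 and 7 days, 0 to 3 at 3 days, 0 to 2 for 1 to 24 h and for 3 to 7 days, 1 to 6 late against early and 0 to 2 by the F-test. Late against early it was 1 without replicate 4 of 1 h, 1 of 4 h, 4 of 5 days or 4 of 7 days and 6 without replicate 2 of 3 days. Over the same omissions, calls among all genes ran from 547 to 660 late against early and from 8 to 329 at 3 days. They ran from 13 to 287 for 1 to 24 h, from 41 to 404 for 3 to 7 days and from 336 to 535 by the F-test. The replicate block in place of the dye effect gave 2 late against early, where the call of Mrpl13 ended, and 1 by the F-test; replicate numbers were not found to pair the arrays. Counts stayed within 1.5 times of the main ones with no dye effect, values above 12 kept, at least 2 values per group and the replicate block, for each comparison. The fit with only the arrays compared is the main fit for the F-test and was not repeated. For all genes, late against early calls ranged from 327 to 908 over these settings (main 607). The causes were not tested.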
